A study of Mus musculus with 25 samples.

Results

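Dorsal root ganglia of mice with destabilization of the medial meniscus (DMM) were compared with those of naive mice 8 weeks after surgery. The members were chosen by their labels: 3 DMM arrays and 3 naive arrays, 6 of the 25 arrays of the study, read across all 20260 named genes that were bright enough to test. The study followed knee osteoarthritis and its pain in male C57BL/6 mice at 4, 8 and 16 weeks. The tissue was the L3 to L5 ganglia, in which sensory neurons of the hind limb lie among glia, blood vessels, resident immune cells and a sheath. The DMM group had the surgery, which unseats a meniscus and is a standard way to bring on osteoarthritis, on the right side when 10 weeks old, and ganglia were taken 8 weeks later, at 18 weeks of age. The naive group was untreated and was taken at the same 18 weeks of age. A sham-operated group at 8 weeks holds 1 array, the rest having failed quality control according to the submitters, so its value is given as a level with no test. Naive mice had no surgery, so surgery as such and joint destabilization cannot be told apart in this comparison. The p-values measure only the spread between samples within a group, pooled over the groups of all 25 arrays. The labels do not say which side the ganglia came from or how many animals gave each sample, so that spread may be technical.

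Values are log2 intensities, on which a difference of 1 is a 2-fold change. Differences are DMM minus naive with the standard error of limma, which rests on the same pooled spread. The array medians of the 6 arrays and the sham array ran from 4.98 to 5.03 and those of the negative control probe sets from 5.13 to 5.27, so genes near 5 may lie at background. The brightness limit for testing, 4.52, lay below the negative control medians, so a tested gene can lie at background. The tissue label was checked against 17 pan-neuronal and sensory neuron genes. Their mean level was 14.54 to 14.62 on the DMM arrays and 14.55 to 14.62 on the naive arrays. The mean of 8 spinal cord glia genes was 5.62 to 5.89 on DMM arrays and 5.67 to 5.97 on naive arrays, and that of 9 skeletal muscle genes was 5.52 to 5.94 and 5.54 to 5.93. The correlation between arrays over the 20260 genes was 0.995 to 0.997 within the groups and 0.994 to 0.997 between them. The arrays of a group were therefore about as far apart as arrays of different groups.

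The mammalian clock is a loop in which BMAL1 (the product of Arntl) and CLOCK switch on the Period and Cryptochrome genes, whose proteins then shut BMAL1 and CLOCK down. The nuclear receptors REV-ERB alpha and beta (Nr1d1, Nr1d2) repress Arntl, and output factors such as DBP carry the rhythm to other genes. The clock runs in peripheral tissues as well as in the brain. In the ganglion, satellite glia wrap each neuron and carry FABP7, a brain-type fatty acid binding protein, while myelinating Schwann cells carry PMP2, a relative of it, in peripheral myelin.

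At 8 weeks 10 of the 20260 genes passed an adjusted p of 0.05, which is 0.0494% of the genes tested. There were 2 higher (0.00987%) and 8 lower (0.0395%) in DMM ganglia. Arntl and Fabp7 were higher. The clock genes Per2, Dbp and Per3 were lower, as were 5 transcripts that RefSeq classes as pseudogenes, a class of 3012 among the 20260. None of the 10 overlapped between the 3 DMM and the 3 naive arrays. At an unadjusted p under 0.05 there were 636 higher and 1084 lower genes, 3.14% and 5.35% of those tested and 8.49% together. The groups did not overlap for 973 genes that were higher (4.80%) and 1092 that were lower (5.39%), 10.2% together. The count of 10 rests on single arrays: it was 120 without naive replicate 3, 94 without DMM replicate 1, 5 without naive replicate 2 and 4 without naive replicate 1. In a fit of the 6 arrays alone limma passed 0 genes, with 1103 at an unadjusted p under 0.05.

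**Figure D1:**
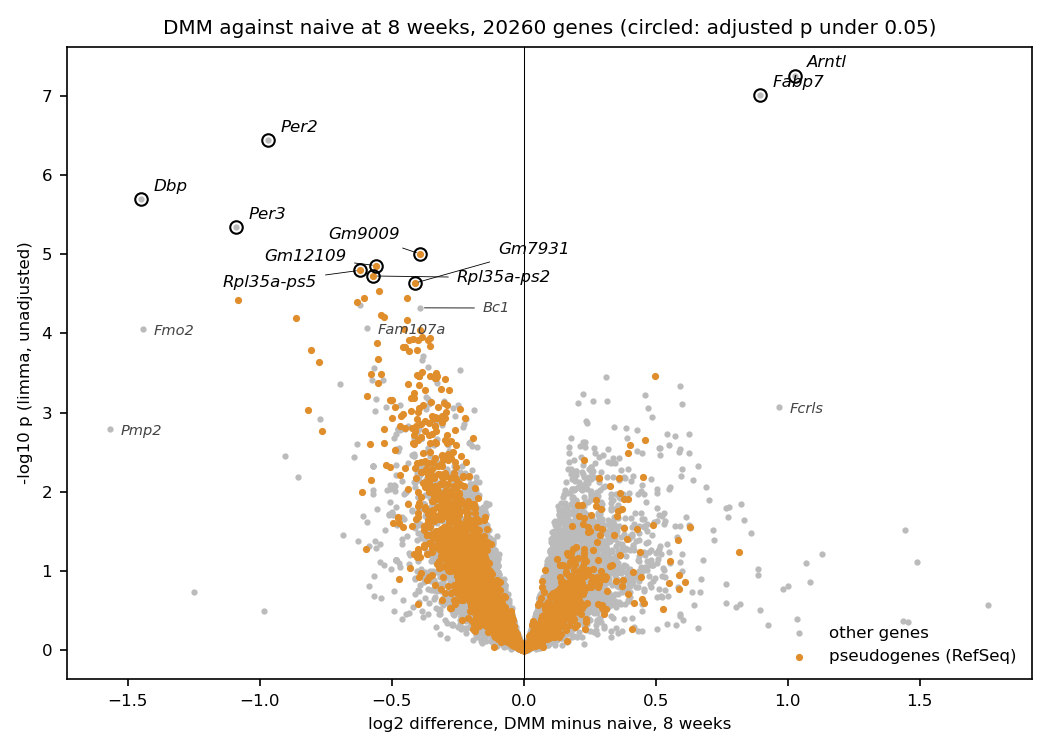
Each point is 1 of 20260 genes, placed by its log2 difference (DMM minus naive at 8 weeks) and by minus log10 of its unadjusted limma p, with RefSeq pseudogenes in orange and all other genes in grey. The 10 circled genes passed adjusted p 0.05, with Arntl and Fabp7 on the right and Dbp, Per3, Per2 and 5 pseudogenes on the left, and pseudogenes crowd the left arm.

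The 250 bases before the transcription start are shown for the passing clock genes and for Fabp7 because the clock proteins work through short DNA motifs. They come from RefSeq promoters on GRCm38.p6, which held an entry for Arntl, Dbp, Per3 and Fabp7 among the 5 passing genes that are not pseudogenes. Each runs 5′ to 3′ in lower case on the strand of the gene, with motif matches in capitals. A set of 3 motifs was searched on both strands: the E-box CACGTG read by BMAL1 and CLOCK, the D-box TTATGTAA or TTACGTAA read by DBP and its relatives, and the motif AGGTCA read by REV-ERB and ROR receptors. Of 32851 promoters of the same length, 1978 (6.02%) hold the E-box, 306 (0.931%) the D-box and 4607 (14%) AGGTCA.
Arntl (chr7:113207215-113207464, + strand): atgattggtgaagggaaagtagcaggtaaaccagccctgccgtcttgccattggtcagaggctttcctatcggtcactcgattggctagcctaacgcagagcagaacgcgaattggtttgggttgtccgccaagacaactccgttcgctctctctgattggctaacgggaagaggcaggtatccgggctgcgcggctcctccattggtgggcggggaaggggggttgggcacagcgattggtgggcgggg
Dbp (chr7:45704997-45705246, + strand): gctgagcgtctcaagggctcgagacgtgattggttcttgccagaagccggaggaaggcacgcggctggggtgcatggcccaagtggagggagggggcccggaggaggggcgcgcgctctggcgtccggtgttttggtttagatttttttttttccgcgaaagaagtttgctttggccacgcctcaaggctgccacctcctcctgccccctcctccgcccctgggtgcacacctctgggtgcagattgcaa
Per3 (chr4:151044666-151044915, - strand): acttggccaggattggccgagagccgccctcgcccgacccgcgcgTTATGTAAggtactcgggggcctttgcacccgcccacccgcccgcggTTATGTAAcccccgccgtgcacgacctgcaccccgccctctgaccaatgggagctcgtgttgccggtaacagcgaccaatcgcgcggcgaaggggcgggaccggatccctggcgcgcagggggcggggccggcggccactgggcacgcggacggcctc
Fabp7 (chr10:57784673-57784922, + strand): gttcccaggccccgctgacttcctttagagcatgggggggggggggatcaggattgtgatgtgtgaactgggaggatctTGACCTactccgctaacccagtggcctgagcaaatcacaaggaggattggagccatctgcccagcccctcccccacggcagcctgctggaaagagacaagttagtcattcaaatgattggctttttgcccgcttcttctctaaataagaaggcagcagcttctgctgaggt
The Per3 window holds 2 D-boxes, whose first bases lie 205 and 158 bases before the start. The Fabp7 window holds 1 AGGTCA on the opposite strand, 171 bases before the start. The Arntl and Dbp windows hold none of the 3 motifs. A second Arntl window (chr7:113207261-113207510), not printed, holds none either. Only exact matches in the 250 bases before a start were searched, so sites of another form or place would be missed.

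Among the activators of the clock, Arntl rose in DMM ganglia. It stood at 6.95, 7.06 and 6.87 on the DMM arrays, against 5.93, 5.99 and 5.89 on the naive arrays, and the sham array read 5.93. All DMM arrays lay above all naive arrays by far more than the spread within either group, and the sham array lay among the naive ones. The difference was 1.03 ± 0.12 (SE, n = 3 each), or 2.04-fold, with a limma adjusted p of 0.00101. Clock, the partner of BMAL1, read 13.01, 13.20 and 12.95 in DMM and 12.83, 12.83 and 12.82 in naive ganglia, a difference of 0.23 that did not pass (adjusted p = 0.22). The groups did not overlap for Clock. Npas2, which can stand in for CLOCK, differed by -0.11 with overlapping groups.

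Of the 7 repressors tested, Per2 and Per3 fell. Per2, which closes the loop on BMAL1, read 6.46, 6.18 and 6.13 in DMM ganglia, against 7.24, 6.96 and 7.47 in naive ganglia, and 6.92 on the sham array. Every DMM array was below every naive array and below the sham array. The difference was -0.97 ± 0.13 (SE, n = 3 each), 1.96-fold lower, with a limma adjusted p of 0.00249. Per3, another Period gene, read 6.55, 5.98 and 6.84 in DMM and 7.70, 7.54 and 7.39 in naive ganglia, with 7.26 on the sham array. It was 2.13-fold lower, by -1.09 ± 0.17 (adjusted p = 0.0187), and DMM replicate 2 was the lowest array. Its call was lost without DMM replicate 2 (adjusted p = 0.0671), without naive replicate 1 (0.17) and without naive replicate 2 (0.0777).

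The other repressors pointed the same way without passing. Per1 read 7.34, 7.06 and 6.91 in DMM and 7.90, 7.46 and 7.88 in naive ganglia (-0.64 ± 0.19, adjusted p = 0.27). Bhlhe40, which competes for the E-box, differed by -0.37 and the cryptochrome Cry2 by -0.20, both with no overlap between the groups. Cry1 differed by -0.08 and Bhlhe41 by -0.08, and for these the groups overlapped. The median over the 7 repressors was -0.37, beside -0.0013 over all genes tested.

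Among the output factors, Dbp fell. It read 8.61, 7.85 and 8.83 in DMM ganglia, against 9.77, 10.07 and 9.80 in naive ganglia, with 9.36 on the sham array. The highest DMM array was well below the lowest naive array, and DMM replicate 2 was again the lowest. The difference of -1.45 ± 0.22 (SE, n = 3 each) is 2.73-fold lower (limma adjusted p = 0.0102), and it missed the threshold without naive replicate 2 (0.0777). Tef, a relative of DBP that binds the same D-box, read 7.07, 6.53 and 7.21 in DMM and 7.58, 7.46 and 7.45 in naive ganglia (-0.56, adjusted p = 0.169). Usp2, a clock-driven deubiquitinase, differed by -0.27 (adjusted p = 0.173). Neither Tef nor Usp2 overlapped between the groups. Hlf differed by -0.32, Wee1 by -0.12 and Nfil3, a repressor at the D-box, by 0.10, all with overlap.

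The REV-ERB genes did not pass. Nr1d1 read 9.08, 8.15 and 9.61 in DMM ganglia, against 10.02, 10.05 and 9.49 in naive ganglia (-0.91 ± 0.27, adjusted p = 0.265). DMM replicate 3 lay above naive replicate 3, so the groups overlapped. Nr1d2 read 10.89, 10.13 and 11.07 in DMM and 11.20, 11.33 and 11.12 in naive ganglia, a difference of -0.52 with no overlap (adjusted p = 0.372). Rora, an activator of Arntl, differed by -0.10 with overlap.

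Of 27 clock genes listed, 23 were bright enough to test, and 1 passed higher and 3 lower. The 3 DMM and 3 naive arrays did not overlap for 3 genes that were higher and 9 that were lower, where the shares over all genes are 4.80% and 5.39%. DMM replicate 2 was the lowest DMM array for Per3, Dbp, Tef, Nr1d1 and Nr1d2. Without that array the median of the 6 output factors was -0.12 in place of -0.29, and that of the 3 nuclear receptors -0.23 in place of -0.52. The median of the repressors was -0.35 without it. The labels used here give no time of day at which tissue was taken. Different collection times of the groups, a shift of the clock and a change in its amplitude therefore cannot be told apart.

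**Figure D2:**
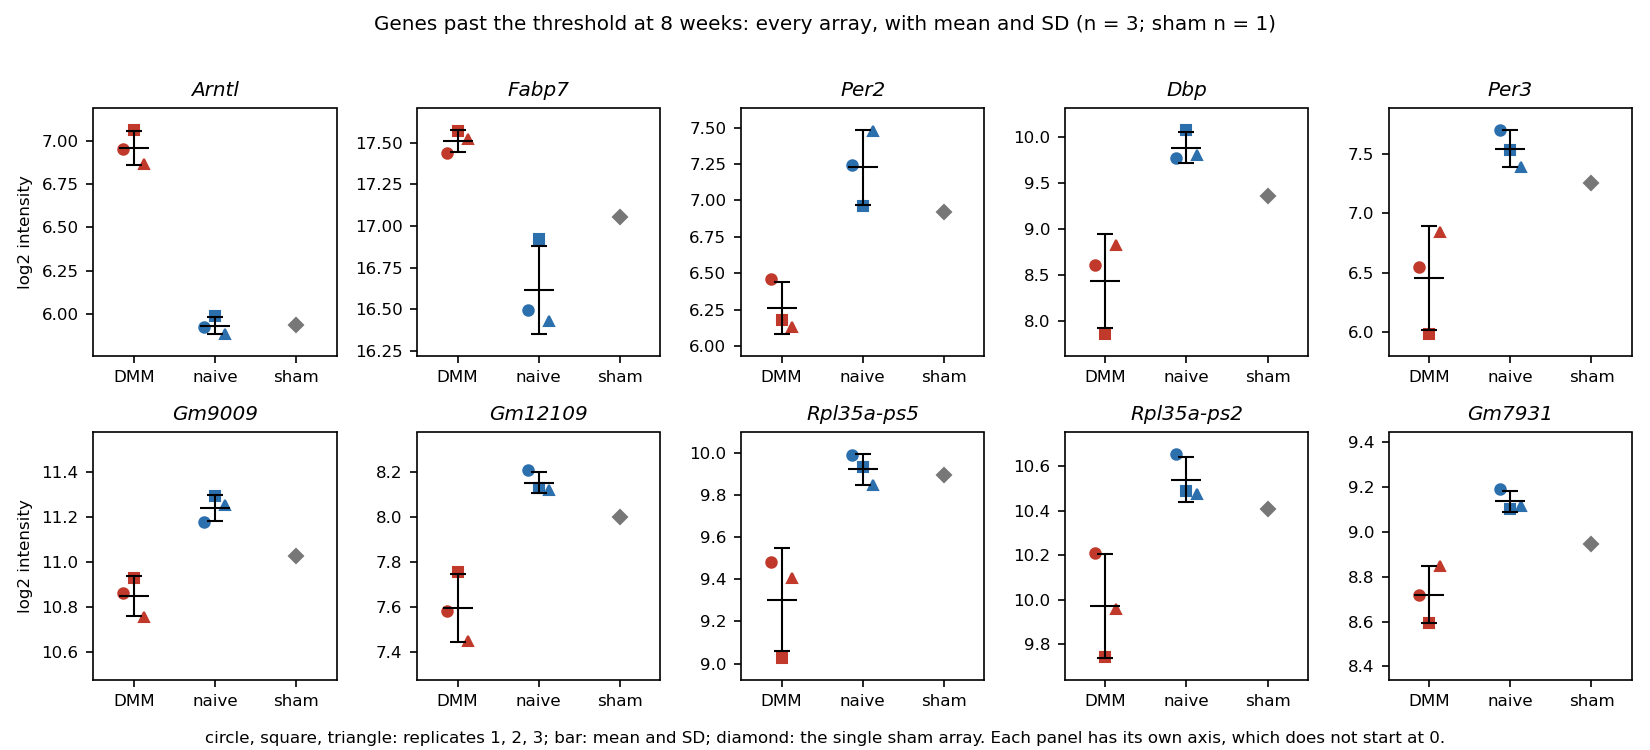
Log2 intensity of the 10 genes past adjusted p 0.05, with 1 panel a gene, DMM arrays in red at the left, naive arrays in blue in the middle and the single sham array as a grey diamond; bars are the mean and SD of 3 arrays. No DMM array overlaps a naive array in any panel, and the sham array lies among the naive arrays for Arntl and Rpl35a-ps5 and between the groups for the other 8.

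Fabp7 was higher in DMM than in naive ganglia. Its probe set is among the bright ones, with 17.44, 17.57 and 17.52 on the DMM arrays, against 16.50, 16.92 and 16.43 on the naive arrays, and 17.05 on the sham array. The DMM arrays lay within a narrow band above all naive arrays, the naive arrays were more spread, and the sham array lay between. The difference was 0.89 ± 0.11 (SE, n = 3 each), or 1.86-fold, with a limma adjusted p of 0.00101. In bulk ganglia, more cells of a type and more RNA per cell cannot be told apart, and the same holds for fewer cells and less RNA per cell.

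Fabp7 was alone among 14 tested markers of satellite glia in passing. Their median was 0.04, with differences from -0.25 to 0.89. Only 1 of the 14, Fabp7 itself, did not overlap between groups, beside 10.2% of all genes. The list's mean level was 10.86 to 11.11 on DMM arrays and 10.87 to 10.91 on naive arrays. Ednrb, the endothelin B receptor, read 12.86, 13.12 and 13.16 in DMM and 12.63, 12.68 and 12.91 in naive ganglia (0.30, adjusted p = 0.366). Kcnj10, the inward rectifier potassium channel Kir4.1, differed by 0.26 and Sox10, a glial transcription factor, by -0.25, with overlap. Gfap, which marks reactive satellite glia, read 4.63 to 4.99 on DMM arrays and 4.60 to 4.91 on naive arrays, under the negative control medians.

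Among the other fatty acid binding proteins, Pmp2 had the most negative difference of all 20260 genes, but it did not pass. It read 9.02, 8.55 and 9.92 in DMM ganglia, against 10.32, 10.57 and 11.30 in naive ganglia, and 9.50 on the sham array. The groups did not overlap, both were widely spread, and the sham array lay within the DMM range. The difference was -1.57 ± 0.43 (adjusted p = 0.205). Fabp3 differed by -0.18 with no overlap (adjusted p = 0.484), and Fabp5 by -0.04.

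The 14 tested genes of myelinating Schwann cells all had a negative difference, with a median of -0.35, but none passed. Of these 3 did not overlap between the groups, all lower: Pmp2, Mag and Egr2, where the share over all genes is 5.39%. Mag, a glycoprotein at the inner face of myelin, read 6.35, 6.29 and 6.67 in DMM and 6.72, 6.75 and 6.94 in naive ganglia (-0.37, adjusted p = 0.336). Egr2, the master transcription factor of myelination, read 7.57, 7.50 and 7.82 in DMM and 7.90, 7.90 and 7.97 in naive ganglia (-0.29, adjusted p = 0.489). Differences for Mbp, a structural myelin protein, Fa2h, which makes myelin lipids, and Cldn19, a tight junction protein of Schwann cells, were -0.38, -0.55 and -0.56, with overlap.

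The myelin list rested on part of the DMM arrays. Its mean level was 9.69, 9.51 and 10.14 on the DMM arrays, against 10.22, 10.06 and 10.21 on the naive arrays, and 9.70 on the sham array. DMM replicates 1 and 2 were low, DMM replicate 3 lay within the naive range, and the sham array was as low as DMM replicate 1. Without DMM replicate 2 the list's median was -0.18, and without DMM replicate 3 it was -0.53. The median of the same list was -0.15 at 4 weeks and 0.16 at 16 weeks, from other arrays.

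**Figure D3:**
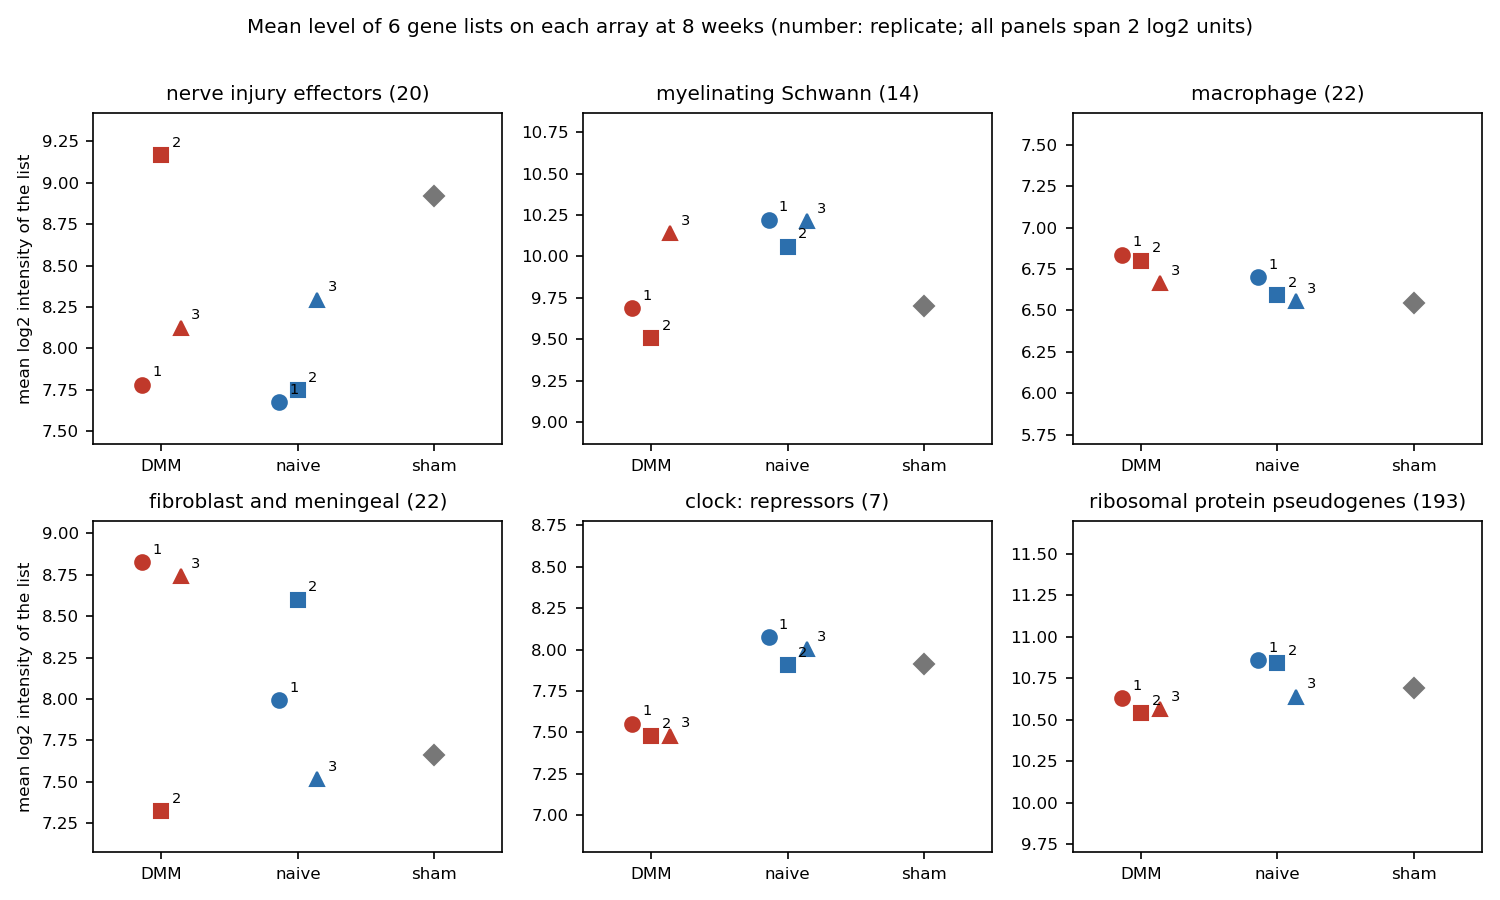
Mean log2 intensity of 6 gene lists on each array, with DMM in red, naive in blue, the single sham array in grey, and the replicate number beside each point. The clock repressors separate the groups, the nerve injury list is high on DMM replicate 2 (9.16) and the sham array (8.92), and the meningeal list is low on DMM replicate 2 (7.32).

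Genes that sensory neurons switch on after axon injury were high on single arrays. Atf3, the transcription factor that marks injured sensory neurons, read 6.83, 9.14 and 7.59 in DMM ganglia, against 6.83, 6.85 and 7.89 in naive ganglia, and 8.90 on the sham array. DMM replicate 2 and the sham array stood high, naive replicate 3 was raised, and the groups overlapped (0.67 ± 0.48, adjusted p = 0.778). The neuropeptide gene Nts read 10.28, 13.03 and 11.13 in DMM and 9.33, 9.74 and 11.03 in naive ganglia (1.44 ± 0.62, adjusted p = 0.512). Sprr1a, a growth cone protein of regenerating axons named after its values were seen, read 5.82, 13.67 and 9.85 in DMM and 6.72, 6.10 and 11.24 in naive ganglia, with 13.17 on the sham array. The galanin gene Gal read 9.46, 11.38 and 8.71 in DMM and 8.46, 8.44 and 10.23 in naive ganglia. In each of these the same DMM array and naive replicate 3 were the high ones of their groups.

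Of 20 injury effector genes tested, 19 had a positive difference and the median was 0.26, but none passed. Among them 0 were free of overlap, beside 10.2% of all genes. The list's mean level was 7.78, 9.16 and 8.13 on the DMM arrays, against 7.68, 7.75 and 8.30 on the naive arrays. Without DMM replicate 2 the median was 0.04, and without DMM replicate 1 it was 0.44. Sox11, another injury-induced factor, differed by 0.34, the growth factor gene Bdnf by 0.41 and the adhesion gene Flrt3 by 0.52, with overlap. The Period, Dbp and Arntl differences kept their sign in a fit without DMM replicate 2 and naive replicate 3, a pair chosen after seeing the data. This sign was fixed beforehand, because the groups do not overlap for these genes, so it says nothing on the part of those arrays.

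Macrophage genes were mostly a little higher without any passing. Of 22 tested, 6 were higher and 1 lower with no overlap, where the shares over all genes are 4.80% and 5.39%, and the median was 0.18. Ctss, a lysosomal protease of antigen presenting cells, read 7.93, 7.95 and 7.57 in DMM and 7.35, 7.46 and 7.20 in naive ganglia (0.48, adjusted p = 0.338). Itgam, the CD11b integrin, differed by 0.29 and C1qc, a chain of complement C1q, by 0.35, both with no overlap. Cd163, a scavenger receptor of tissue macrophages, went the other way, with 6.13, 6.08 and 6.11 in DMM and 6.27, 6.44 and 6.54 in naive ganglia (-0.31, adjusted p = 0.265). Csf1r, the receptor that macrophages need to live, differed by -0.06 (95% interval -0.28 to 0.17).

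Several genes of myeloid cells were highest on DMM replicate 1. Fcrls, which is not on that list, is a receptor of microglia and resident macrophages and read 7.62, 6.42 and 6.16 in DMM and 5.81, 5.64 and 5.86 in naive ganglia (0.97, adjusted p = 0.173). Adgre1, a surface receptor of mature macrophages, read 8.26, 6.54 and 6.49 in DMM and 6.52, 6.12 and 6.18 in naive ganglia (0.82, adjusted p = 0.419). C3ar1, the receptor for the complement fragment C3a, read 7.59, 6.83 and 6.54 in DMM and 6.41, 6.30 and 6.38 in naive ganglia. On the same DMM array Alas2, which makes haem in red blood cell precursors, read 11.82, against 8.42 and 7.34 on the other DMM arrays, and 7.71, 9.69 and 7.49 on the naive arrays. The part of blood in these values was not tested. The mean of the macrophage list was 6.84, 6.80 and 6.66 on DMM and 6.70, 6.59 and 6.55 on naive arrays, and its median was 0.10 without DMM replicate 1 and 0.10 without DMM replicate 2.

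Innate immune pathways are the subject of the study's title, and no gene of these lists passed. Of 17 innate sensors and adaptors, 1 did not overlap, which is no larger a share than the 10.2% of all genes. That gene, Tlr3, a receptor for double-stranded RNA, read 7.11, 7.28 and 7.21 in DMM and 6.84, 6.78 and 6.95 in naive ganglia (0.34, adjusted p = 0.205). Myd88, the adaptor of most Toll-like receptors, differed by 0.30 with overlap (adjusted p = 0.485). Tlr4 differed by 0.09 (95% interval -0.18 to 0.36). Tlr2 lay near the negative controls, at 4.71 to 4.97 on DMM arrays and 4.70 to 5.29 on naive arrays.

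The chemokine Ccl2, which draws monocytes and acts on nociceptors, read 6.20, 7.10 and 6.21 in DMM ganglia, against 5.99, 6.15 and 6.09 in naive ganglia, and 6.33 on the sham array. The groups did not overlap, by a narrow margin outside DMM replicate 2 (0.43 ± 0.20, 95% interval 0.02 to 0.83, adjusted p = 0.561). Its receptor Ccr2 differed by 0.09 (95% interval -0.24 to 0.42). Over 19 chemokine genes and receptors 3 did not overlap, all higher, beside 4.80% of all genes, and none passed. Il1b and Tnf were below the brightness limit, and Calca had no probe set that carries 1 symbol.

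Cytokine receptors were among the lists with positive medians. Of 15 cytokine genes and receptors, 6 had an unadjusted p under 0.05, all higher, beside 3.14% of all genes, and the median was 0.17. Of these 15, 2 higher and 1 lower did not overlap, beside 4.80% and 5.39% of all genes. Il10ra, the interleukin 10 receptor, read 5.94, 5.71 and 5.43 in DMM and 5.32, 5.40 and 5.42 in naive ganglia (0.31, adjusted p = 0.333). Il31ra and Osmr, the pair that forms the itch receptor for interleukin 31, differed by 0.61 and 0.45, with overlap. Il4ra differed by 0.50, with 9.87 on DMM replicate 2 against 8.75 and 9.06 on the other DMM arrays. Without DMM replicate 2 the list's median was 0.08, and without DMM replicate 3 it was 0.05. The 26 interferon-stimulated genes had 5 higher and 1 lower with no overlap, beside 4.80% and 5.39% of all genes, and a median of 0.11. Ifit2 had the smallest p (0.22, adjusted p = 0.455) and Ifit1 the largest difference (0.76, adjusted p = 0.745), both of them interferon-induced antiviral genes.

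Alarmins and neutrophil genes were dim. All 10 tested had a positive difference, with a median of 0.29 (0.16 without DMM replicate 2), and 2 did not overlap, beside 4.80% of all genes that were higher. The alarmin S100a8 read 7.20, 7.06 and 8.17 in DMM and 7.03, 5.83 and 6.56 in naive ganglia (1.0 ± 0.67, adjusted p = 0.749). Csf3r, the receptor for granulocyte colony-stimulating factor, read 5.06, 5.24 and 4.83 in DMM and 4.82, 4.73 and 4.73 in naive ganglia, around the level of the negative controls.

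Genes that glucocorticoid hormone induces gave 7 lower and 1 higher without overlap out of 18, beside 5.39% and 4.80% of all genes, with a median of -0.13. Fam107a, an actin-binding stress gene, read 7.06, 7.46 and 7.28 in DMM and 7.99, 7.58 and 8.02 in naive ganglia (-0.59 ± 0.12, adjusted p = 0.0728). Zbtb16 read 6.17, 5.81 and 5.94 in DMM and 6.65, 6.20 and 6.54 in naive ganglia (-0.49, adjusted p = 0.383). The kinase gene Sgk1 differed by -0.26, and Tsc22d3, which encodes the glucocorticoid-induced leucine zipper and is named after its values were seen, by -0.22, both with no overlap. Per1, given above, is also on this list. Angptl4, a lipase inhibitor, was the 1 higher gene (0.45, adjusted p = 0.36). Leaving out naive replicate 3 gave a list median of -0.04, leaving out DMM replicate 3 gave -0.06, and leaving out naive replicate 2 gave -0.21.

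**Figure D4:**
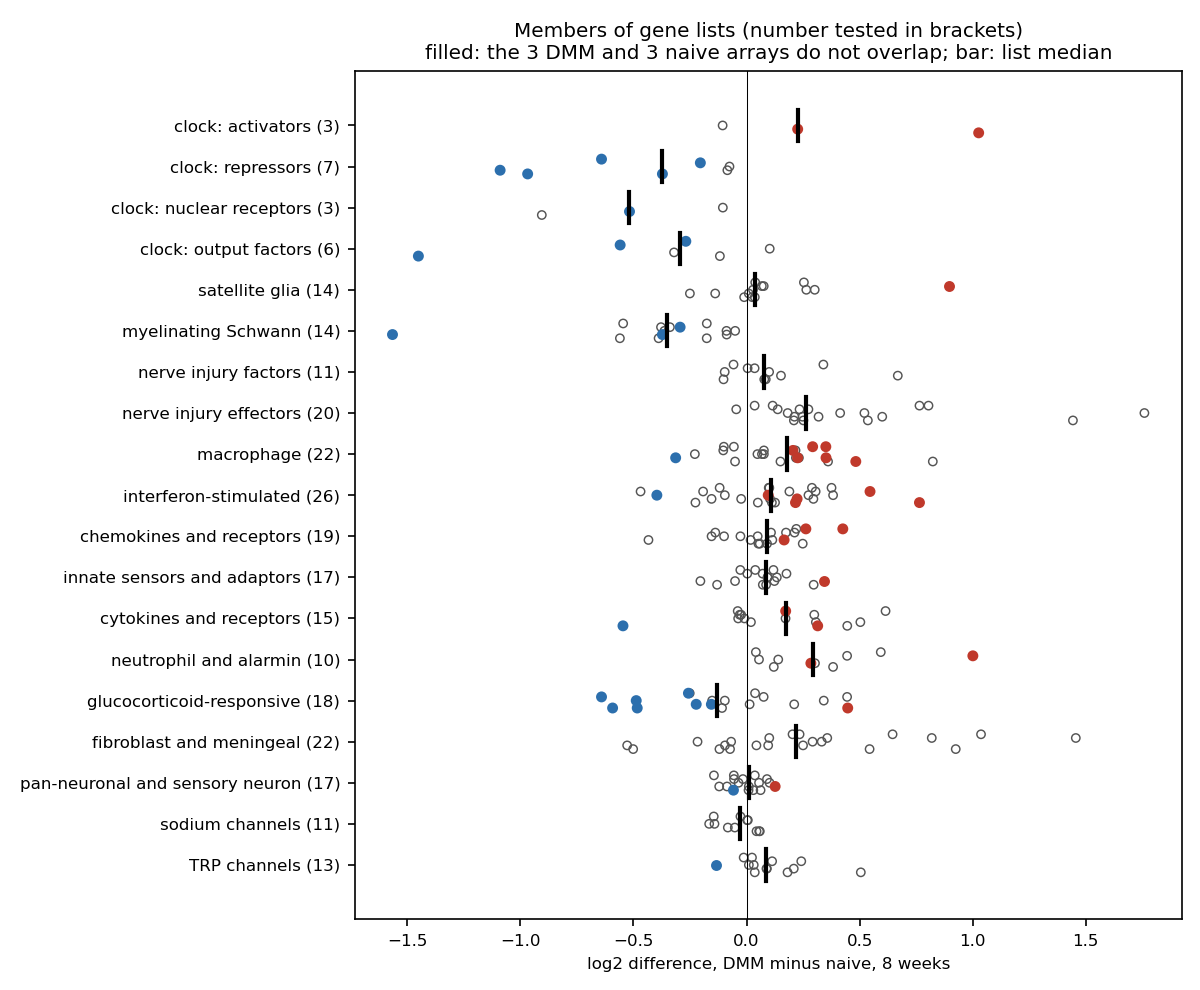
Log2 differences (DMM minus naive at 8 weeks) of the tested members of 19 gene lists, 1 point a gene and a bar at each list's median; filled points, red for higher and blue for lower, have no overlap between the 3 DMM and 3 naive arrays. Clock repressors and myelin genes lie left of 0, while the medians of the sodium channel and pan-neuronal lists are -0.03 and 0.01.

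Pan-neuronal genes and sodium channels had medians near 0. Over 17 pan-neuronal and sensory neuron genes the median was 0.01 with differences from -0.14 to 0.13. Over 11 sodium channel subunits the median was -0.03 and 0 were free of overlap, beside 10.2% of all genes. Over 13 TRP channels the median was 0.09, with 11 positive and differences up to 0.51. Scn9a, which encodes the pain channel Nav1.7, differed by 0.06 (95% interval -0.13 to 0.25) and Scn10a, for Nav1.8, by 0.06 (-0.19 to 0.30). Trpv1, the heat and capsaicin receptor, differed by 0.18 with a wide interval (-0.37 to 0.73). None of these intervals reaches a 2-fold change in either direction.

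Some genes of particular nociceptor classes had larger differences that did not pass. Mrgprx1, an itch receptor gene of non-peptidergic neurons, read 11.46, 12.16 and 11.46 in DMM and 10.98, 11.20 and 11.31 in naive ganglia (0.53, adjusted p = 0.492, no overlap). Th, which marks low-threshold C fibres, read 14.33, 14.03 and 13.64 in DMM and 14.91, 14.21 and 14.64 in naive ganglia (-0.59, adjusted p = 0.583). Gabra5, a GABA-A receptor subunit, and Ptgir, the prostacyclin receptor, differed by 0.83 and 0.69, and both were highest on DMM replicate 2, at 11.49 and 10.54. The high reading on the array with high Atf3 is given as measured, and its part in these differences was not tested.

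Meningeal and fibroblast genes varied from array to array more than between groups. The mean of 22 genes was 8.83, 7.32 and 8.74 on the DMM arrays, against 7.99, 8.60 and 7.51 on the naive arrays, and 7.66 on the sham array. Ranbp3l, a gene of the ganglion sheath, read 8.20, 5.14 and 7.47 in DMM and 5.47, 7.62 and 4.61 in naive ganglia. High and low arrays occurred in both groups, and 0 of the 22 were free of overlap, beside 10.2% of all genes. The list median of 0.22 depended on the arrays: leaving out DMM replicates 1, 2 and 3 in turn gave 0.04, 0.46 and -0.02, leaving out naive replicate 2 gave 0.33 and leaving out naive replicate 3 gave 0.05. Dcn, the matrix proteoglycan decorin, differed by -0.50 and Lum, its relative lumican, by -0.53, with overlap.

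The 5 passing pseudogene transcripts fell by less than the passing clock genes. Rpl35a-ps5, a processed copy of the ribosomal protein gene Rpl35a, read 9.48, 9.02 and 9.40 in DMM ganglia, against 9.99, 9.93 and 9.85 in naive ganglia (-0.62 ± 0.11, adjusted p = 0.0405). Rpl35a-ps2 read 10.21, 9.74 and 9.96 in DMM and 10.66, 10.49 and 10.47 in naive ganglia (-0.57 ± 0.10, adjusted p = 0.0426). Gm9009, Gm12109 and Gm7931 fell by 0.39, 0.56 and 0.41 (adjusted p = 0.0338, 0.0405 and 0.0472). A probe set for a processed pseudogene can share sequence with its parent gene and with other copies, so these values cannot be assigned to 1 locus. Rpl35a itself is not among the genes tested.

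Of 3012 RefSeq pseudogenes tested, 2106 had a negative and 906 a positive difference. Without overlap 405 of them were lower and 74 higher, beside 5.39% and 4.80% of all genes. Their median was -0.08, beside 0.01 over 13865 protein-coding genes, of which 536 were lower and 769 higher without overlap. The class mean was 8.39, 8.36 and 8.32 on the DMM arrays, against 8.48, 8.49 and 8.35 on the naive arrays, so the groups overlapped at naive replicate 3. Of 193 transcripts with a ribosomal protein pseudogene symbol, 54 were lower and 1 higher without overlap, beside the same 5.39% and 4.80%. Of the 193, 177 had a negative difference, and the median was -0.20. RefSeq classes 2 of these as protein-coding and does not match 1, and 8 of them give only 3 distinct measurements. Of 33 ribosomal protein genes, 7 were lower and 1 higher without overlap, beside those same shares, with a median of -0.11. The mean of the transcripts with these pseudogene symbols was 10.63, 10.54 and 10.56 on DMM arrays, against 10.86, 10.84 and 10.64 on naive arrays, and 10.69 on the sham array. Naive replicate 3 stood near the DMM arrays, and without it their median was -0.27. RefSeq pseudogenes, 3012 of the 20260 genes tested, made up 78 of the 120 genes that passed without naive replicate 3 and 39 of the 94 without DMM replicate 1. They made up 2 of 7 without DMM replicate 2, 1 of 7 without DMM replicate 3, 0 of 4 without naive replicate 1, 0 of 5 without naive replicate 2 and 0 of 5 with no filter on dim genes.

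Other transcripts just short of the threshold were lower in DMM ganglia. Bc1, a short neuronal RNA found in dendrites and axons of rodents, read 17.09, 17.00 and 17.14 in DMM and 17.52, 17.45 and 17.44 in naive ganglia (-0.39 ± 0.08, adjusted p = 0.0568). Fmo2, a flavin monooxygenase that oxidizes drugs and other compounds, read 6.96, 6.33 and 7.0 in DMM ganglia, against 8.29, 8.12 and 8.19 in naive ganglia, and 7.51 on the sham array. The groups did not overlap for Fmo2, which differed by -1.44 ± 0.29 (adjusted p = 0.0728). Rps27a-ps2 differed by -0.86 (adjusted p = 0.0641).

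The passing genes were then set beside the same contrast at the other times, which rest on other arrays with their own naive groups. At 4 weeks 2 genes passed (0.00987%), Arntl and Dbp, and at 16 weeks 3 passed (0.0148%), Arntl, Fabp7 and Lyz1, a lysozyme gene named after its values were seen. The Arntl difference was 0.94 at 4 weeks, 1.03 at 8 weeks and 1.17 at 16 weeks, and that of Dbp was -1.66, -1.45 and -1.20. Per2 differed by -0.55, -0.97 and -0.54, and Per3 by -0.82, -1.09 and -0.60. Fabp7 differed by 0.25, 0.89 and 0.74. The test of the change itself gave 0.64 ± 0.15 for Fabp7 between 8 and 4 weeks (adjusted p = 0.435) and -0.42 ± 0.18 for Per2 (0.536). No gene of the 20260 passed limma for a different effect at 8 and 4 weeks, with 1779 at an unadjusted p under 0.05 (8.78%).

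The level of Fabp7 in each group was set out by time, with no test between times within a group. In DMM ganglia it averaged 17.77 ± 0.07 at 4 weeks, 17.51 ± 0.07 at 8 weeks and 17.60 ± 0.13 at 16 weeks, and in naive ganglia 17.51 ± 0.13, 16.61 ± 0.27 and 16.86 ± 0.06 (SD, n = 3 each). The DMM means lay within a narrow range, while the naive mean was highest at 4 weeks.

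Between 8 and 16 weeks 10 genes had a different effect (0.0494% of those tested), all with a lower difference at 8 weeks than at 16 weeks. All 10 are pseudogenes by RefSeq, as are 3012 of the 20260 genes tested, and 5 are copies of Rpl35a. Rpl35a-ps5 differed by 0.00 at 4 weeks, -0.62 at 8 weeks and 0.41 at 16 weeks, and Rpl35a-ps2 by -0.03, -0.57 and 0.37. Rpl35a-ps3, Rpl35a-ps4 and Rpl35a-ps6 have identical values on all 6 arrays and count as 1 measurement. Leaving out naive replicate 3 gave 61, leaving out DMM replicate 1 gave 17, and leaving out either of the other DMM arrays gave 6. Without naive replicate 1 limma passed 0, with 1443 at an unadjusted p under 0.05, and without naive replicate 2 it passed 0, with 1490.

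**Figure D5:**
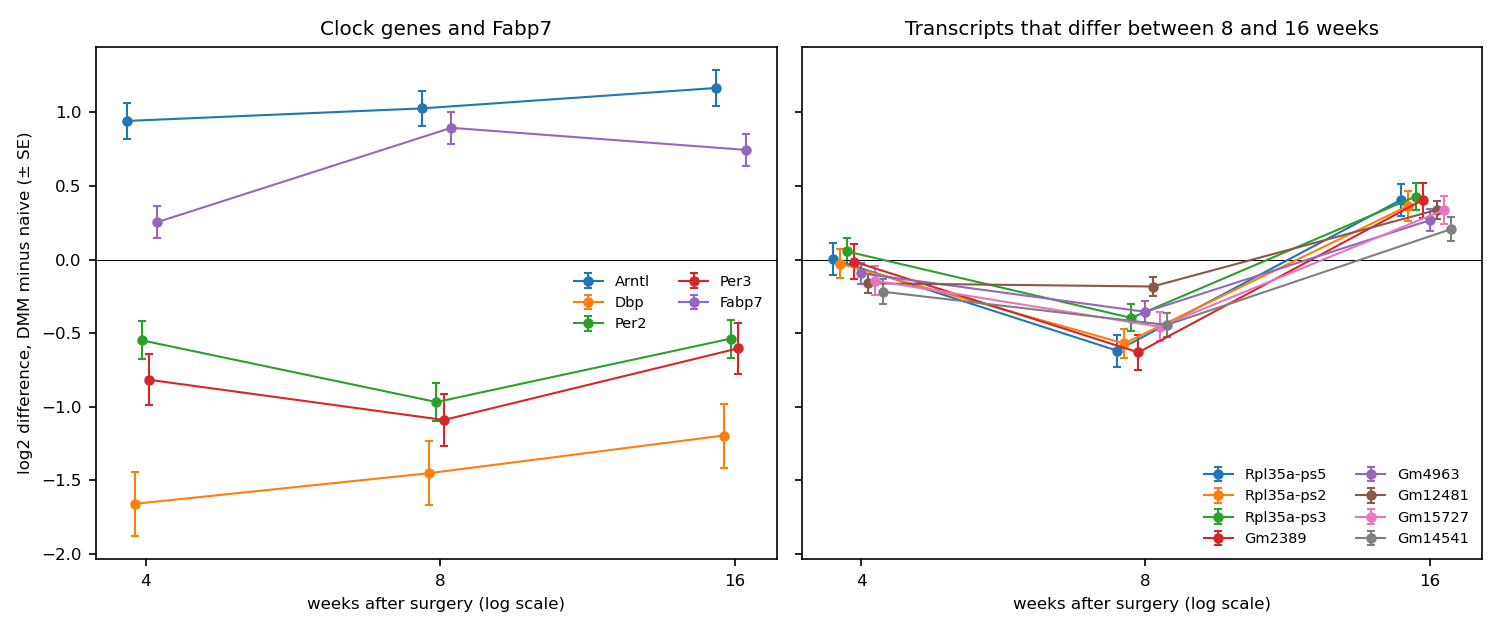
Log2 difference (DMM minus naive, with SE from limma) at 4, 8 and 16 weeks after surgery for the passing clock genes and Fabp7 at the left and for transcripts whose effect differed between 8 and 16 weeks at the right, where Rpl35a-ps3 also stands for its 2 identical copies. The clock genes keep their sign at all 3 times, and the transcripts at the right are below 0 at 8 weeks and above 0 at 16 weeks.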

How the data were processed

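The deposited values are log2 intensities, 1 per probe set, in 1 table of 72685 probe sets. The log2 scale was read from the values (2.23 to 19.70). The normalization the authors applied is not given in the sources used here. Arrays have no read depth, so their number limits precision.

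Samples were grouped by title. Of 65956 transcript probe sets, 30604 carried 1 symbol (2146 carried several, 33206 none), which gave 30142 genes, with the brightest probe set used for 355 of them. Genes with a mean above the 40th percentile (4.52) were tested, 20260 in all. limma 3.58.1 (R 4.3.3) fitted 1 mean per group over all 25 arrays (16 residual and 3.28 prior degrees of freedom). Tests were two-sided with Benjamini-Hochberg adjustment and a threshold of 0.05. The median 95% interval reached 0.203 to each side.

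On simulated data for this contrast (20260 genes), 61 of 100 genes shifted by 0.5 and 98 of 100 shifted by 1 were recovered, with 15 unshifted genes called. On the measured arrays the count of passing genes ran from 4 to 120 when 1 array was left out. Whether the recovery rates hold for arrays with such differences between them was not tested.

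The comparison and 50 gene lists (797 entries, 632 tested) were chosen with earlier results of these data known. Named genes are those that pass in the 8-week or a time contrast, the 15 of smallest p and 10 of largest difference without overlap each way, up to 6 members of smallest p in a described list, any clock, satellite glia or myelin gene, and a set of pain and neuroimmune genes, some of which are not reported here, with Gm symbols named only where they pass. Symbols and biotypes were updated through RefSeq (GRCm38.p6). Alternatives changed the filter, scaling, prior, weights, probe set rule and arrays.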

Additional observations from a re-analysis of the deposited data

Results flagged for a closer look

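The effect of DMM against naive differed between 8 and 16 weeks by a limma test of the difference itself for 10 transcripts. The differences, 8 minus 16 weeks on the log2 scale, were -1.03 for Gm2389, -1.03 for Rpl35a-ps5, -0.94 for Rpl35a-ps2, -0.82 for Rpl35a-ps3, -0.82 for Rpl35a-ps4, -0.82 for Rpl35a-ps6, -0.79 for Gm15727, -0.65 for Gm14541, -0.62 for Gm4963 and -0.52 for Gm12481. Adjusted p ran from 0.0156 to 0.0479. With 3 arrays a group, no single array could be tested as an outlier.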

How the results depend on the processing

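The count of 10 passing genes was 0 in fits of the 6 arrays or of the 7 arrays of 8 weeks (1103 at an unadjusted p under 0.05 in each). The sham array is alone in its group, so the fit of 7 arrays repeats that of 6 for this contrast. The count was 5 with no filter on dim genes, and 21 with the 60th percentile filter or with arrays centred on their median. It was 18 with the mean of all probe sets of a gene, and 4 to 120 without 1 array each. Left out together, an alternative chosen after seeing the data, DMM replicate 2 and naive replicate 3 gave 28. The count of 10 for 8 against 16 weeks was 0 to 61 without 1 array, and 25 without that pair. The count of 0 for 8 against 4 weeks was 0 in all 15 alternatives run.

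Equal replicate numbers do not pair the samples: their correlations of deviations from the group means were 0.028, -0.21 and -0.20, and no label ties them. With the replicate block 7 genes passed, 6 of them among the 10, and 6 passed for 8 against 16 weeks.

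Arntl, Fabp7 and Per2 passed in 15 of 17 alternatives. They did not pass in the fits of 6 and 7 arrays, which are the same for this contrast. Dbp passed in 14, Per3 in 12, Gm9009 in 11, Gm12109 in 10, Gm7931 and Rpl35a-ps2 in 7 and Rpl35a-ps5 in 6. All 10 kept their direction in all 17 alternatives. For the fits that leave out arrays this was fixed beforehand, because none of the 10 overlapped between the groups. In genes that never passed, the sign turned with the array left out: over such fits, the pair included, differences ran from -0.35 to 0.084 for Bhlhe41 (0.0034 without DMM replicate 1), -0.49 to 0.015 for Hlf, -0.14 to 0.61 for Sox11, -0.14 to 0.038 for Csf1r, -0.048 to 0.19 for Ccr2 (-0.014 without naive replicate 1), -0.26 to 0.041 for Tlr2 (0.033 without naive replicate 3), -0.021 to 0.23 for Tlr4, -0.042 to 0.16 for Scn10a, -0.19 to 3.74 for Sprr1a and -0.42 to 1.82 for Alas2. The causes were not tested. Genes near the negative control medians of 5.13 to 5.27 have little signal over background.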

Other observations

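Small nucleolar RNAs leaned lower at 8 weeks by unadjusted p but not by overlap. Of 626 tested, 140 were lower and 20 higher at an unadjusted p under 0.05, beside 5.35% and 3.14% of all genes. Without overlap 20 were lower and 17 higher, both smaller shares than the 5.39% and 4.80% of all genes, and none passed. Their mean level was 9.07, 8.98 and 8.94 on DMM arrays, against 9.22, 9.11 and 8.93 on naive arrays. Naive replicate 3 was the lowest of these arrays. Immunoglobulin and T cell receptor V segments leaned the other way: of 93 tested, 16 were higher and 1 lower without overlap, beside 4.80% and 5.39% of all genes, with a median of 0.13 and mean levels of 5.41, 5.49 and 5.31 on DMM arrays, against 5.26, 5.36 and 5.16 on naive arrays. Those levels are close to the negative controls.

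Array weights estimated by limma were lowest for DMM replicate 2 (0.492) and naive replicate 3 (0.641) among the 8-week arrays. The deviations of these arrays from their group means correlated at 0.325 over the 20260 genes.

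Across protein-coding genes, which are not independent replicates, the DMM differences at 8 weeks correlated at -0.20 with those at 4 weeks and at 0.20 with those at 16 weeks. Across 3012 pseudogenes the values were 0.04 and -0.18.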
